A study of Mus musculus with 6 samples.

Results

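Broad H3K4me3 domains were taken here as the autosomal H3K4me3 peaks of untreated wild-type (wt) mouse colonic organoids that spanned at least 3000 bp. Of the 11233 autosomal peaks of that library, 704 (6.27%) met this limit, out of 11552 peaks on all chromosomes. They covered 2.78 Mb, or 15.6% of all autosomal bases called for H3K4me3. The domains were chosen by their wt width, so the wt widths below are a description and were not tested.

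Colonic organoids are cultures of epithelial cells that grow from the colon without stroma, and these came from C57BL/6 mice. They were grown without TNFα (wt) or with 40 ng/ml of this inflammatory cytokine for 3 weeks (wt+TNFα). The sample titles name neither the donor animals nor their sex. A difference between donors could therefore not be told apart from one between treatments. Chromatin was precipitated with an antibody from Millipore to H3K4me3 or one from CST to H3K27me3, and an input was sequenced per condition. Each condition and mark had 1 library, so nothing below could be set against replicates, and neither p-values nor SDs are given. The total reads behind the lists differed between the H3K4me3 libraries and were higher in wt+TNFα, whose autosomal peaks were also wider, by a median ratio of 1.07 over the 10867 wt peaks also called there. The part of depth in the widths was not tested.

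H3K4me3 is a histone mark deposited by trithorax-type methyltransferases at the promoters of active genes, where it usually covers a few nucleosomes. At a minority of genes it spreads over several kilobases into the gene body, and such broad domains are known to mark the genes that define a cell type, as well as tumor suppressor genes. H3K27me3 is the repressive mark of Polycomb complexes, and promoters that carry both marks are called bivalent.

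The median domain was 3602 bp wide, with quartiles at 3258 and 4190 bp. Of the 704 domains, 214 reached 4000 bp, 80 reached 5000 bp, 33 reached 6000 bp and 9 reached 8000 bp. The fold enrichment over the local background had a median of 33.8 in domains, against 33.7 in peaks of 2 to 3 kb, 27.6 in peaks of 1 to 2 kb and 9.93 in peaks under 1 kb. The domains thus had about the same median height as the class below them, and 104 of them were among the 704 peaks of highest fold enrichment. At the limit itself the peaks were alike. Phip spanned 3002 bp, and Uap1, Aqp4 and Zbtb10 spanned 3000 bp each. Just under it lay Znfx1 and the shared promoter of Fkbp14 and Plekha8, both at 2998 bp, then Trim16 at 2996 bp and the shared promoter of Tubgcp4 and Zscan29 at 2994 bp.

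The 200 bp around the summits of the domains of Tnrc18 and Hoxa13, among the 3 widest, are shown because the H3K4me3 signal of each domain was highest there. The sequences are from GRCm38, plus strand, 5′ to 3′, with CpG dinucleotides in capitals. They come from chr5:142817035-142817234 (Tnrc18) and chr6:52259980-52260179 (Hoxa13).
Tnrc18: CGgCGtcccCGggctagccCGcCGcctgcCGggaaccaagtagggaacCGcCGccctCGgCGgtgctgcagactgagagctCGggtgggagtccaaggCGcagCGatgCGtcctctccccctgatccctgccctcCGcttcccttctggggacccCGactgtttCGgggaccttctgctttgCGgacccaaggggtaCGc
Hoxa13: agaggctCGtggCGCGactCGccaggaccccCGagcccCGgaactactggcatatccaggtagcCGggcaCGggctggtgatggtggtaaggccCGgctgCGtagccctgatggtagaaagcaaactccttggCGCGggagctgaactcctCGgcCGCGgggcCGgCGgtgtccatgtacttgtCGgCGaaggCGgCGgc
The Tnrc18 window held 19 CpG and that of Hoxa13 21. The median over all domains was 19 CpG in the same window with 70.0% GC, against 21 CpG and 70.5% GC in peaks of 2 to 3 kb. The cores of the domains were therefore as rich in CpG as those of narrower peaks, and what differed was the sequence around them. Bases in CpG-rich windows made up a median of 46.7% of a domain, against 57.9% of a peak of 2 to 3 kb and 62.8% of a peak of 1 to 2 kb. In a domain a median of 1945 bp lay outside such windows, and in a peak of 2 to 3 kb 990 bp did. A window of 200 bp was called CpG-rich at a GC content of at least 50% and a ratio of observed to expected CpG of at least 0.6.

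Nearly all domains lay at genes. An annotated promoter (1000 bp on each side of a transcript start) was touched by 694 domains (98.6%), and a promoter of a protein-coding gene by 682 (96.9%), against 92.0% and 88.8% of the peaks under 3 kb. Of the 704 domains, 576 lay at 1 protein-coding gene, 97 at genes on both strands (13.8%, against 10.3% of narrower peaks) and 9 at more than 1 gene of the same strand. Together they held the promoters of 789 protein-coding genes, which was 7.33% of the 10760 autosomal protein-coding genes with a wt H3K4me3 peak at the promoter. This share is the background for the gene lists below.

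In the 572 domains at a single gene whose start lay inside, H3K4me3 reached a median of 1144.5 bp upstream and 2546 bp downstream of the start. It reached farther into the gene than upstream in 81.3% of them, nearly the same share as in 7753 narrower single-gene peaks (81.1%), which had medians of 454 bp upstream and 880 bp downstream. The summit lay a median of 252.5 bp downstream of the start in domains and 167 bp in narrower peaks. Among the 12 widest domains, Irf2bp2, Zbtb7a, Tmem171 and Hoxb13 lay mostly over the gene, with 7009, 6758, 6910 and 6398 bp downstream. Setd1b lay mostly upstream, with 6195 bp before and 1656 bp after the start.

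**Figure D1:**
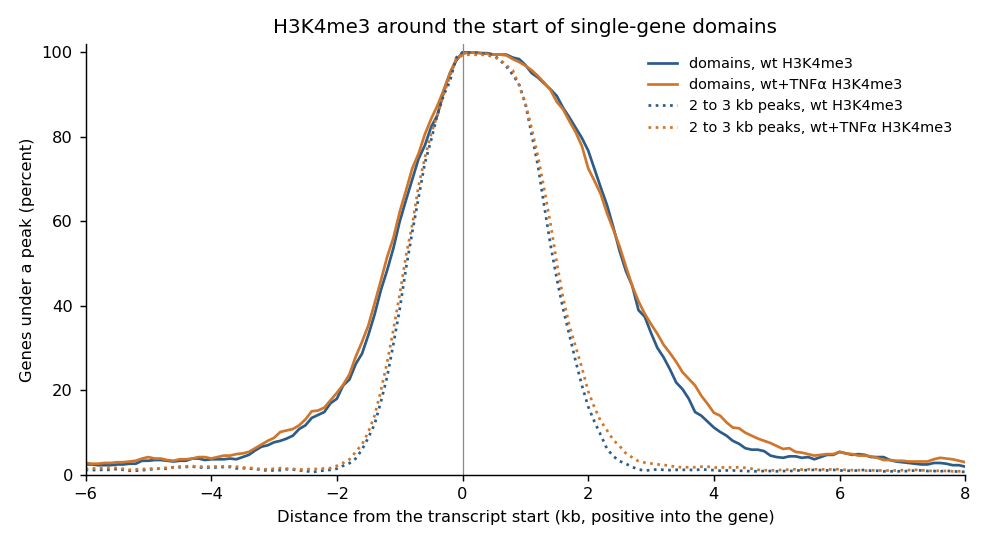
Share of genes under an H3K4me3 peak by distance from the transcript start (kb, positive into the gene), for the 572 single-gene domains and for single-gene peaks of 2 to 3 kb, in wt (blue) and wt+TNFα (orange). At 2 kb into the gene, 76.7% of the domain genes were under a wt peak, and 72.6% under a wt+TNFα peak. Farther in, the order turned, with 33.6% and 35.7% at 3 kb and 11.2% and 14.7% at 4 kb.

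The 12 widest domains began with that of Tnrc18. This gene, which encodes a large chromatin-associated protein, had 11159 bp in wt and 11369 bp in wt+TNFα. Hoxa13, a posterior Hox factor that marks the hindgut, had 10933 and 11363 bp. The wt+TNFα value is the width of the widest overlapping peak.

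Irf2bp2, a transcriptional corepressor, spanned 8895 bp in wt and 9111 bp in wt+TNFα. Gata6, a GATA factor of gut endoderm, spanned 8649 and 9178 bp, and Zbtb7a, a zinc finger repressor, 8364 and 9195 bp. Tmem171 was narrower in wt+TNFα, at 6714 bp against 8241 bp in wt. Bhlhe40, a basic helix-loop-helix repressor, had 8117 bp in wt and 8450 bp in wt+TNFα. Hoxb13, the most posterior gene of its cluster, had 8029 and 8158 bp. Zfp608, a zinc finger gene, had 7902 bp in wt, and its widest peak in wt+TNFα had 3665 bp. Setd1b, an H3K4 methyltransferase, had 7852 and 8735 bp, and Atp1b1, the beta subunit of the sodium pump, had 7781 and 7605 bp. The next in order was Car2, a carbonic anhydrase of surface colonocytes, with 7674 and 8228 bp.

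**Figure D2:**
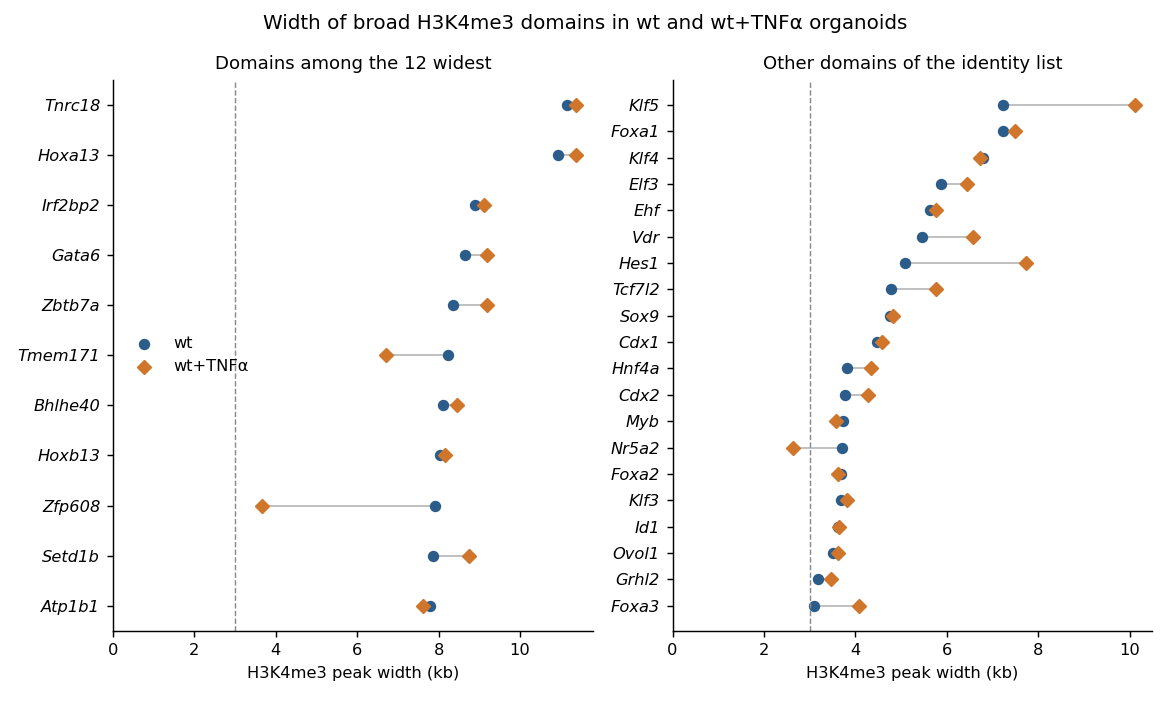
Width of H3K4me3 peaks (kb) in wt (circles) and wt+TNFα (diamonds) for domains among the 12 widest and for other genes of the intestinal identity list with a domain. The dashed line marks 3 kb. Diamonds give the widest overlapping peak. Tmem171 was narrower in wt+TNFα and Nr5a2 fell below 3 kb. Zfp608 was called as 2 peaks there, and at Klf5 and Hes1 1 wider peak spanned 2 wt peaks.

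Transcription factors of intestinal epithelium made up the list with the highest share of domains. Of 40 listed genes, 35 had a wt promoter peak and 26 of these (74.3%) had a domain, against 7.33% of all protein-coding genes with a peak. At 4000 bp or more, 15 of the 35 remained (42.9%, against 2.05% of all genes). Apart from Hoxa13, Gata6 and Hoxb13, they included the zinc finger factors Klf5 (7228 bp in wt, 10122 bp in wt+TNFα) and Klf4 (6795 and 6720 bp). The pioneer factor Foxa1 had 7217 and 7484 bp, and the epithelial Ets factors Elf3 and Ehf had 5876 and 5621 bp in wt and 6430 and 5756 bp in wt+TNFα. Ehf had a further domain of 3042 bp.

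The caudal factors that fix intestinal fate also had domains, of 4472 bp at Cdx1 and 3777 bp at Cdx2 in wt and 4580 and 4265 bp in wt+TNFα. Hnf4a, a nuclear receptor of enterocytes, had 3815 and 4351 bp. Vdr, the vitamin D receptor, had 5465 bp in wt and 6577 bp in wt+TNFα. Other genes of the list with a domain were Hes1, Tcf7l2, Sox9, Myb, Nr5a2, Foxa2, Klf3, Id1, Ovol1, Grhl2 and Foxa3. Factors of the list without a domain had clearly narrower wt peaks, among them Bcl6 at 2282 bp, Ascl2 at 1665 bp, the secretory factor Atoh1 at 1552 bp and Hnf4g at 1408 bp. Isx, Creb3l3, Spdef and Gfi1 had no wt peak at the promoter. Of these, Isx had a peak of 5035 bp in wt+TNFα.

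Genes of epithelial structure were examined next. Of 42 junction and keratin genes with a wt peak, 15 (35.7%) had a domain. Esrp1, an epithelial splicing factor, had 7402 bp in wt and 8099 bp in wt+TNFα, and Krt19, a simple-epithelium keratin, had 6102 and 6127 bp. Ezr, the microvillus linker ezrin, had 5132 and 5100 bp. The adhesion genes F11r, Epcam and Cdh1 had 4651, 4472 and 4311 bp in wt and 5492, 4003 and 4660 bp in wt+TNFα. None of these 15 domains changed by 1.2-fold or more, where over all domains 8.68% were wider and 6.83% narrower. Among the markers used to check the tissue, Epcam, Cdh1, Krt8, Vil1 and Cdx2 had domains, and Krt18 had a narrower peak. No wt or wt+TNFα H3K4me3 peak lay at the promoters of the 8 fibroblast, 8 immune, 5 endothelial, 4 autosomal nerve and glia and 3 squamous marker genes examined.

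The stem cell and Wnt list had 11 domains at 27 genes with a peak (40.7%). They included Myc (4849 bp in wt, 5347 bp in wt+TNFα), the transcription factors Sox9 (4752 and 4826 bp) and Tcf7l2 (4786 and 5756 bp), and the EGF receptor inhibitor Lrig1 (4617 and 5539 bp). Rnf43, a ubiquitin ligase that removes Wnt receptors, had 4434 and 6235 bp, and the R-spondin receptor Lgr4 4287 and 4335 bp. The stem cell genes Lgr5, Olfm4 and Smoc2 had no wt peak. Of the differentiated lineages, 6 of 22 absorptive genes (27.3%) and 3 of 11 secretory genes (27.3%) had a domain. Among these, the transmembrane mucin Muc13 had 5009 bp in wt and 6114 bp in wt+TNFα. Of the 30 secretory genes 19 had no wt peak.

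Genes of rapid signalling responses had many domains as well, 18 of 37 in the immediate early and feedback list (48.6%). Zfp36l1, an RNA-binding protein that destabilizes transcripts, was the widest in wt at 7592 bp, and its widest wt+TNFα peak had 3768 bp. The receptor signalling inhibitor Spry2 had 6534 and 6281 bp. The early-response genes Ier2, Dusp4 and Btg1 had 5718, 5697 and 5426 bp in wt and 5919, 5577 and 6291 bp in wt+TNFα. AP-1 subunits were among them at 4 of 7 genes (57.1%), namely Fosl2, Junb, Jun and Fos.

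The TNF and NF-κB response list stood at the background, with 2 domains at 28 genes with a wt peak (7.14%). These were the IκB family genes Nfkbiz, with 5794 bp in wt and 7001 bp in wt+TNFα, and Nfkbia, the main feedback inhibitor of NF-κB, with 3173 and 4182 bp. Their ratios were 1.21 and 1.32, both past 1.2-fold (8.68% over all domains). Divided by the median ratio of all shared peaks, 1.07, that of Nfkbiz was under 1.2. Tnfaip3, the feedback inhibitor A20, was at 2366 bp in wt and 9484 bp in wt+TNFα, and Tnf itself at 1247 and 3217 bp, so neither was a domain in wt.

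Of the other lists, the TGF-β, activin and BMP genes had domains at 9 of 26 genes (34.6%), the widest at the corepressor gene Tgif1 (6014 bp in wt, 6971 bp in wt+TNFα) and the inhibitor Smad7 (5583 and 6337 bp). The activin receptor Acvr2a had 3614 and 3594 bp, Id1 3608 and 3644 bp, the ligand Bmp2 3406 and 3459 bp, and Smad3 3337 and 5456 bp. Cell cycle and senescence genes had 9 of 35 (25.7%), the widest at Foxo3 (5122 and 4749 bp), Myc and Cdk6 (4437 and 4821 bp). Trp53 had 4069 and 4034 bp, Cdkn1b, the inhibitor p27, 3547 and 4772 bp, and Foxo1 3499 and 3506 bp. Cdkn1a, the inhibitor p21, was just under the limit in wt at 2851 bp and had 3402 bp in wt+TNFα. Polycomb and trithorax genes had 6 of 34 (17.6%), of which Setd1b, Kmt2b, Kmt2c and Kmt2d encode H3K4 methyltransferases.

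Housekeeping genes had 6 domains at 26 genes (23.1%), the widest at Gapdh with 5114 bp in wt and 5157 bp in wt+TNFα. Ribosomal protein genes had 3 of 74 (4.05%) and Zfp zinc finger genes 14 of 307 (4.56%). Among transcription factor families, Hox genes had 7 of 13 (53.8%), Klf factors 6 of 12, Smad factors 3 of 7, Fox factors 8 of 22 (36.4%), Ets factors 4 of 15 and Irf factors 2 of 8. Stat and Tead factors had none at 6 and 3 genes with a peak. The lists share genes, so their counts are not independent.

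**Figure D3:**
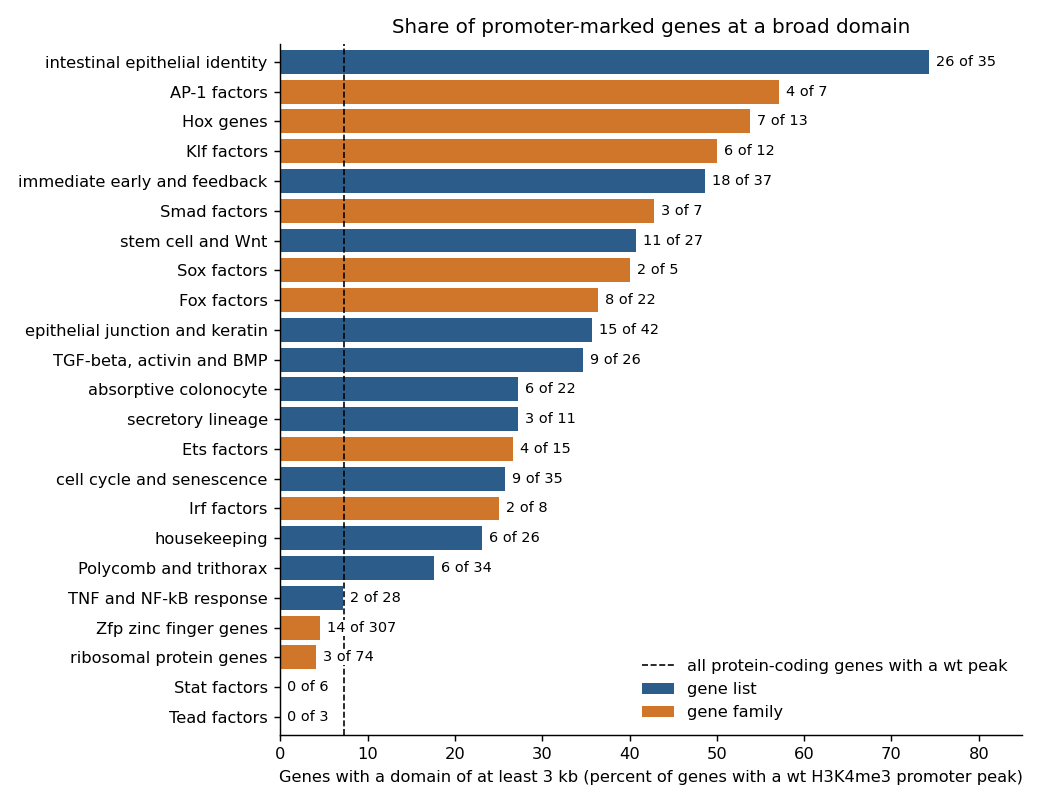
Percent of genes with a wt H3K4me3 promoter peak whose peak was a domain of at least 3 kb, by gene list (blue) and gene family (orange), with counts beside the bars. The dashed line is the share over all protein-coding genes with a peak, 7.33%. Intestinal identity factors stood highest at 74.3%, and the TNF and NF-κB list lay on the line.

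Some domains held microRNA genes of known epithelial roles. Of 919 autosomal hairpins in RefSeq, 83 lay in a wt H3K4me3 peak and 15 of these (18.1%) in a domain, near the 15.6% of H3K4me3 bases that domains hold. The mature strands of those that lie at the Hox clusters or are best known in epithelium are shown, chosen after the members were seen, with the seed (bases 2 to 8) in capitals. They are grouped by seed.
miR-200b-3p: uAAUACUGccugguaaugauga
miR-200c-3p: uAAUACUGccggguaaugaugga
miR-141-3p: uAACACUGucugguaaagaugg
miR-196a-5p: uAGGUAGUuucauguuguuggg
miR-196b-5p: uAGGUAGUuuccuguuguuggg
miR-194-5p: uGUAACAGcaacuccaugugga
miR-192-5p: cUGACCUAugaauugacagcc
miR-21a-5p: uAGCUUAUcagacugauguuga
The miR-200 family restrains the mesenchymal factors Zeb1 and Zeb2. Mir200c (mature strand at chr6:124718324-124718346, minus strand) and Mir141 (chr6:124717917-124717938, minus) shared a domain of 3982 bp in wt and 4261 bp in wt+TNFα, which also touched a promoter of Ptpn6. Mir200b (chr4:156055685-156055706, minus) lay in a domain of 4623 and 4958 bp. The pair with the AGGUAGU seed lay in the Hoxa and Hoxb clusters. Mir196b (chr6:52230129-52230150, minus) was in the domain of Hoxa10 and Hoxa9 (7406 and 7080 bp), and Mir196a-1 (chr11:96265187-96265208, plus) in a domain upstream of Hoxb9 that had 4563 bp in wt and 6336 bp in wt+TNFα, where the peak spanned 2 wt peaks summing to 5390 bp. Mir194-2 (chr19:6264658-6264679, plus) and Mir192 (chr19:6264857-6264877, plus), which are abundant in intestinal epithelium, shared a domain of 3213 and 3490 bp with no protein-coding promoter. Mir21a (chr11:86584120-86584141, minus), a microRNA induced in inflammation, lay in a domain within Vmp1 with 3950 bp in wt and 4855 bp in wt+TNFα.

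At 22 domains there was no protein-coding promoter, and at 10 of them no annotated promoter at all. The widest, chr11:96250475-96258050, held starts of the noncoding gene Gm53 at the Hoxb cluster and had 7576 bp in wt and 7465 bp in wt+TNFα. The domain at chr15:85668658-85675723 had no annotated start within 1000 bp, and its summit was 63433 bp from the nearest protein-coding start, that of Ppara. It was nonetheless among the stronger ones, with 49.7-fold enrichment in wt (61.1-fold in wt+TNFα), and its width went from 7066 to 9931 bp, in a wt+TNFα peak that spanned 2 wt peaks summing to 8774 bp. Malat1, an abundant nuclear noncoding RNA, had 7052 and 7174 bp, and 2810410L24Rik 4999 and 5223 bp. A further domain without a coding promoter was that of Mir196a-1 described above.

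Domains without any CpG-rich window were 35 of 704 (4.97%), against 3.76% of peaks of 2 to 3 kb and 9.12% of all peaks under 3 kb. This group was chosen after the values were seen. The widest was Oit1, with 5691 bp in wt and 5362 bp in wt+TNFα. Pigr, the receptor that carries IgA through the epithelium, followed with 5588 and 5398 bp, then the nucleotidase gene Cant1 with 5215 and 5331 bp, the adhesion gene Ceacam1 with 5043 and 5031 bp, and Muc13. The microRNA domains of Mir21a, Mir200b, Mir192 and Mir194-2 were also in this group. Their median GC content was 45.7% and their median fold enrichment 23.0, against 54.7% and 33.8 over all domains.

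Promoters of domain genes were compared in sequence with those of genes with narrower peaks. From 250 bp before to 50 bp after the start nearest the summit, the median was 28 CpG in 789 domain genes and 25 in 9971 others. The letters GGGCGG, the core of a GC box, were found on either strand in 69.3% of domain genes, in 71.7% of the others and in 38.7% of all 90265 autosomal protein-coding transcript starts, several of which can belong to 1 gene. No CpG-rich window was found in 15.3% of domain genes and 11.5% of the others. TATAAA was found in 6.59%, 4.19% and 11.4%, and the AP-1 letters TGACTCA in 2.66%, 2.80% and 4.36%. The E-box letters CACGTG were found in 8.11%, 9.79% and 7.08%. No motif holds another, although neighbouring matches can share end bases, and a match is not a bound site.

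Nearly all domains were called again in wt+TNFα. An H3K4me3 peak was called at 703 of the 704 (99.9%, against 96.7% of all autosomal wt peaks), and it spanned at least 3000 bp at 634 (90.1%). Of the wt domain bases 96.0% were under a wt+TNFα peak. The widest overlapping peak had 1.03 times the wt width in the median (quartiles 0.975 and 1.08), with 453 domains wider and 249 narrower. The fold enrichment had a median of 33.9 in wt and 36.1 in wt+TNFα. By gene, 718 of the 789 genes also had a peak of at least 3 kb in wt+TNFα (91.0%), which was 70.0% of the 1025 such genes there.

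Because members were selected on wt width, a width read in another library is lower on average from the choice alone, and the reverse choice gives the other side. Of 901 autosomal wt+TNFα peaks of at least 3 kb, 897 had a wt peak and 636 (70.6%) were at least 3 kb in wt, and the ratio of wt+TNFα over wt width was 1.07 in the median. Of the 70 domains that did not reach 3000 bp in wt+TNFα, 41 had a wt width under 3300 bp, a class with 209 domains. Of the 495 domains of at least 3300 bp, 466 (94.1%) kept at least 3000 bp. At 19 domains more than 1 wt+TNFα peak overlapped, with gaps between them from 356 to 2488 bp, and their summed width had a median of 0.894 times the wt width.

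Changes of 1.2-fold or more were seen in both directions. Of the 703 domains 61 were wider in wt+TNFα (8.68%, against 19.0% of all shared autosomal peaks), and 48 were narrower (6.83%, against 4.33%). The split turned when each ratio was divided by the median of all shared peaks, 1.07, which gave 37 wider and 75 narrower. Peaks under 1 kb were wider by this measure in 39.8% of cases and those of 2 to 3 kb in 8.99%, so the share wider fell with wt width. At the 558 single-gene domains whose edges could be followed, the downstream edge moved by a median of 58 bp outward and the upstream edge by 40.5 bp. In the 55 wider ones the downstream edge moved by 940 bp and the upstream edge by 173 bp, so the added width lay mostly over the gene. In the 28 narrower ones with both edges measured, the median change was -816.5 bp at the downstream edge and -91.5 bp at the upstream edge.

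The widths that rose most belonged to genes of several functions. Adcy6, an adenylyl cyclase, had 4478 bp in wt and 9080 bp in wt+TNFα, a ratio of 2.03. Noxo1, the organizer subunit of the NADPH oxidase of colon epithelium, had 3095 and 6226 bp (2.01), and the tetraspanin Tspan8 had 3324 and 6478 bp (1.95). Hoxd13 had 3715 and 7280 bp (1.96) and its neighbour Evx2 3987 and 7137 bp (1.79). The remaining members of the first 8 were 2010111I01Rik, an aminopeptidase gene, with 3925 and 7502 bp (1.91), the glycolytic gene Pkm with 3185 and 5843 bp (1.83) and the transcription factor Bcl11a with 3914 and 6577 bp (1.68).

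At 22 of the 61 wider domains the wt+TNFα peak spanned more than 1 wt peak, so part of the added width was already called in wt as a separate peak. This held for 7 of the 8 domains just named. At Adcy6, 3 wt peaks inside the wt+TNFα peak summed to 7301 bp, against its 9080 bp. At Noxo1, 2 wt peaks summed to 5647 bp, close to 6226 bp, and at Bcl11a to 5526 bp, against 6577 bp. The sums lay farther under the wt+TNFα width at Hoxd13 (4221 bp), Tspan8 (4842 bp) and Evx2 (5099 bp), with 2 wt peaks each, and at Pkm (4260 bp), with 3. At 2010111I01Rik the wt+TNFα peak held 1 wt peak, as it did at Smad3, Epha2, Rnd3 and Acvr1b. Of these, Smad3, the effector of TGF-β and activin signals, had a ratio of 1.64 and the activin receptor gene Acvr1b one of 1.57.

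Within the identity list, 5 of 27 domains were wider by 1.2-fold or more (8.68% over all domains), those of Hes1 (5079 bp in wt and 7732 bp in wt+TNFα), Klf5, Foxa3, Vdr and Tcf7l2. Vdr and Tcf7l2 were under 1.2 after division by the median ratio of all shared peaks. The Notch target Hes1 had a ratio of 1.52 and Klf5 one of 1.40. At both genes the wt+TNFα peak spanned 2 wt peaks. These summed to 7180 bp at Hes1, close to its 7732 bp in wt+TNFα, and to 7878 bp at Klf5, against 10122 bp. The only one narrower by as much was Nr5a2, an orphan nuclear receptor, with 3712 and 2645 bp. Over that list the median ratio was 1.03, as over all domains.

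The widths that fell most were at Hoxa5, with 5254 bp in wt and a widest peak of 1301 bp in wt+TNFα (ratio 0.248), and at B3galt5, a glycosyltransferase, with 5283 and 1687 bp (0.319). Both had 2 wt+TNFα peaks, which summed to 1928 and 3355 bp. Irf8, an interferon regulatory factor, had 4840 and 1894 bp (0.391), in 1 peak. The cytokine signalling inhibitor Socs2 had 3340 and 1533 bp (0.459). At Foxd2, a forkhead factor, the width was 7178 bp in wt and 3620 bp in wt+TNFα (0.504), and at AI854703 it was 3234 and 1699 bp (0.525).

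Zfp608 and Zfp36l1 were each called as 2 peaks in wt+TNFα. Their widest peaks gave ratios of 0.464 and 0.496, but the 2 peaks at each gene summed to 7065 and 7267 bp, near the wt widths of 7902 and 7592 bp. At Irf8, Socs2 and Foxd2 a single wt+TNFα peak overlapped the domain. The fold enrichment at Hoxa5 went from 29.3 to 11.9 and at Socs2 from 22.4 to 13.1, while at Irf8 it was 21.7 in both and at Foxd2 25.3 in wt and 36.6 in wt+TNFα.

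**Figure D4:**
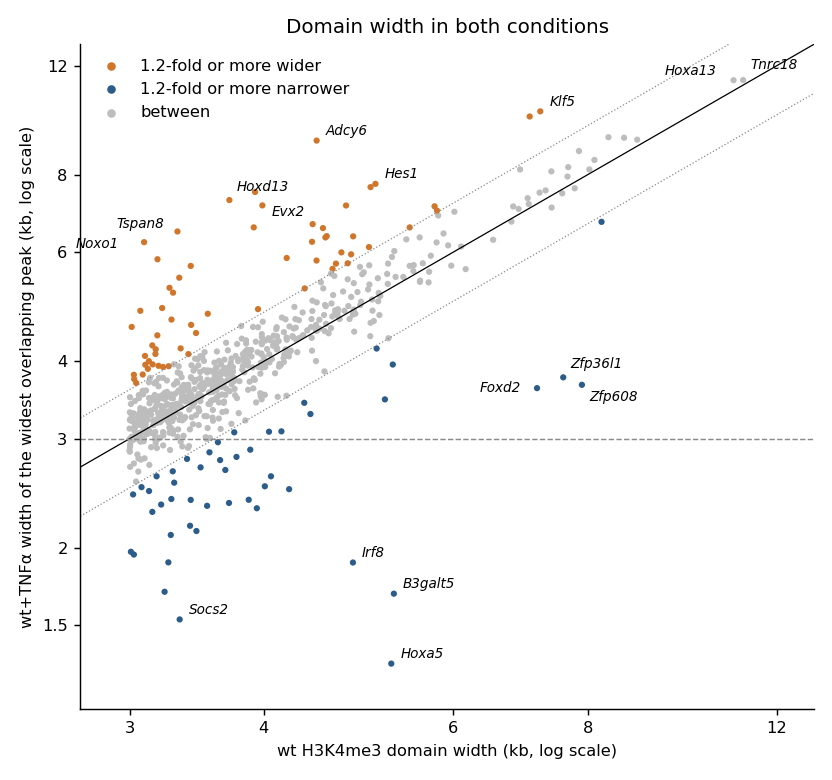
Width of domains in wt and of the widest overlapping peak in wt+TNFα (kb, both axes on a log scale). The solid line is equality, the dotted lines are 1.2-fold, and the dashed line is 3 kb. Orange points (61) were wider and blue points (48) narrower by 1.2-fold or more.

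The only domain with no H3K4me3 peak in wt+TNFα was chr5:137162628-137166341, at the noncoding genes Gm3054 and Gm40348, 16541 bp from the start of the mucin gene Muc3. It had 3714 bp and a fold enrichment of 11.3 in wt. In wt+TNFα 60.3% of it lay under an H3K27me3 peak of 2238 bp, which was not called in wt.

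H3K27me3 was rare on the domains. In wt, 6 domains (0.852%) touched an H3K27me3 peak, against 7.40% of all autosomal H3K4me3 peaks. In wt+TNFα, 11 did (1.56%, against 7.74%). By wt width the share in wt was 20.3% of peaks under 1 kb, 4.01% at 1 to 2 kb, 1.75% at 2 to 3 kb and 0.852% of domains. At the H3K4me3 summit, H3K27me3 was called at 3 domains in each condition (0.426%). None of the 214 domains of at least 4000 bp touched H3K27me3 in either condition, which allows a share of up to 1.40% by counting error alone. On the autosomes as a whole, H3K27me3 was called over 101 Mb in wt, and in wt+TNFα over 228 Mb. With the wt+TNFα list limited to its strongest peaks up to the wt length, 6 domains (0.852%) touched H3K27me3 in wt+TNFα, as many as in wt, against 6.25% of all autosomal H3K4me3 peaks.

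**Figure D5:**
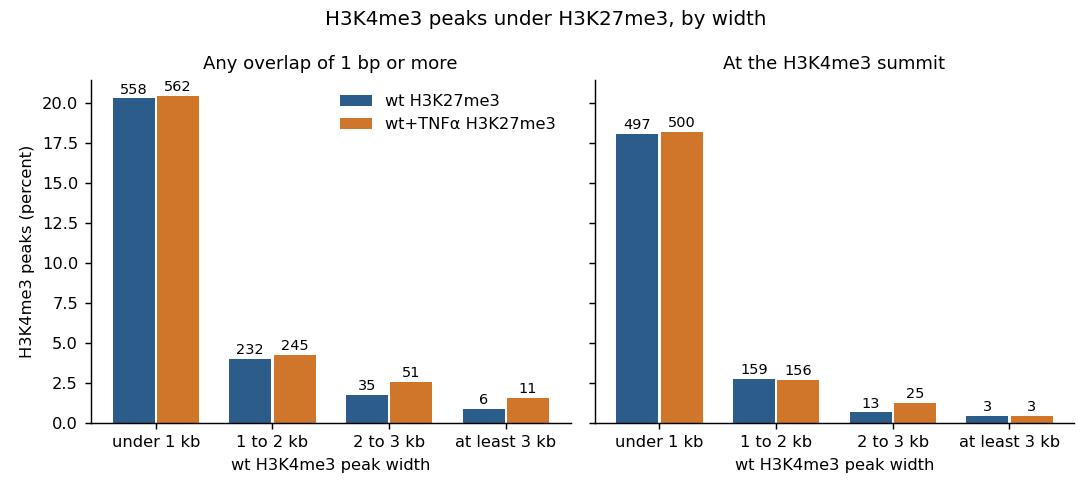
Percent of autosomal wt H3K4me3 peaks under H3K27me3 in wt (blue) and wt+TNFα (orange), by H3K4me3 width, for any overlap (left) and at the summit (right), with counts above the bars. The share fell from 20.3% in peaks under 1 kb to 0.852% in domains for wt H3K27me3.

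Of the 6 domains under wt H3K27me3, 3 lay wholly inside such a peak. These were Evx2 and Hoxd13, which shared a wt peak of 130377 bp over the Hoxd cluster, and Bcl11a, in a peak of 26646 bp. In wt+TNFα none of the 3 had any H3K27me3 called, and their H3K4me3 width ratios were 1.79, 1.96 and 1.68. As given above, each wt+TNFα H3K4me3 peak there spanned 2 wt peaks, and at Bcl11a these summed to 5526 bp of the 6577 bp, so part of the difference in width was a joining of peaks. Of the Hoxd peak as a whole 80.9%, and of the Bcl11a peak 72.2%, was still under H3K27me3 in wt+TNFα. The H3K4me3 fold enrichment at Evx2, Hoxd13 and Bcl11a was 12.02, 24.7 and 16.1 in wt, and the values in wt+TNFα were 25.4, 38.5 and 32.8.

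The other 3 were touched in part. Pfkfb3, a glycolytic regulator, had 31.5% of its domain under H3K27me3 in wt and 0% in wt+TNFα, from a weak wt peak with −log10 q of 0.646. Ptprg, a receptor phosphatase, had 26.9% in wt and 100% in wt+TNFα, and its H3K4me3 width went from 3281 to 2398 bp. The orphan receptor gene Nr4a3 had 7.41% and 14.8%.

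The 9 domains touched in wt+TNFα alone included Socs2, which went from 0% to 100% under a peak of 13683 bp with −log10 q of 8.55. Its H3K4me3 width and fold enrichment were both lower there, as given above. B4galnt2, a glycosyltransferase of the gut, had 42.0% of its domain covered, Dpf3 34.4%, Gse1 28.1%, the G protein gene Gna14 27.7%, Ppp1r3b 13.4% and Myb, the progenitor factor, 0.538%, beside the domain near Muc3 and 378 bp at Pkdcc. The H3K27me3 peaks at Pkdcc, Ppp1r3b, Myb and B4galnt2 were weak, with −log10 q of 0.978, 1.58, 1.66 and 1.70. H3K4me3 was narrower by any amount at 7 of the 8 that had a wt+TNFα H3K4me3 peak (249 of 703 over all domains), from 0.459 at Socs2 to 0.963 at Myb, and was 1.05 at Gse1. In all, 2 domains were touched in both conditions and 689 in neither.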

How the data were processed

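Peak lists of H3K4me3 and H3K27me3 from wt and wt+TNFα colonic organoids were used, 1 per condition and mark; the inputs and reads were not analysed here. Per the paper's methods, the authors mapped trimmed reads with bwa-mem to GRCm38/mm10, dropped duplicates and blacklisted regions, and called narrow (H3K4me3) or broad (H3K27me3) peaks with MACS2 against the input. The submitters' processing notes name BWA 2.2, SAMtools 1.11 and MACS2 2.1.0. The deposited lists give a fold enrichment, which is a ratio to the local background, a −log10 of p- and q-values, and a score for display, which was not used. All list names but that of wt+TNFα H3K27me3 mention a spike-in. Peak lists carry no depth, so the precision of a width is unknown, and widths can grow with depth.

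Promoters (1000 bp either way from each transcript start) came from GENCODE M21, gene types as annotated there, and an overlap of 1 bp counted. Sequences were read from GRCm38.p6, and microRNAs from RefSeq on the same build. All 114580 peaks of the 4 lists lay inside their chromosomes. Python 3.11.15, numpy 2.4.6, scipy 1.17.1 and matplotlib 3.10.9 were used. Steps were tested on 400 simulated peaks, of which 100% were recovered. Members and gene lists were chosen with earlier results of these data known. Most genes were named by rules: the 12 widest domains, those at the limit, up to 6 per list, the 8 largest and 8 smallest width ratios, domains without a wt+TNFα peak or a coding promoter, and those under H3K27me3. Some genes outside these rules were also named, among them Tnfaip3, Tnf, Cdkn1a and Acvr1b. Alternatives covered promoter size, width limit, joining of peaks, ratio definition and the H3K27me3 criterion. Some items that these rules name are not reported here.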

Additional observations from a re-analysis of the deposited data

Results flagged for a closer look

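Chromosome X was outside the domains compared. It held 10 H3K4me3 peaks of at least 3 kb among 316 in wt and 11 among 329 in wt+TNFα. In wt+TNFα they lay, for example, at Efnb1 (5072 bp, against 4928 bp in wt), Maoa (4829 and 5218 bp) and Mid1ip1 (4765 and 3523 bp). These peaks were noted because they are a signal in data that no comparison used, and no test was possible. The H3K27me3 lists differed more off the autosomes. In wt, 30347 of 30594 H3K27me3 peaks were autosomal, and in wt+TNFα 48962 of 60540 were. More H3K27me3 peaks thus lay off the autosomes in wt+TNFα, and the reason was not tested.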

How the results depend on the processing

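With 1 library per condition and mark, leaving out a replicate was not possible. The 789 genes at domains went from 692 to 802 under the other promoter sizes, overlaps and assignments. The share of identity genes with a domain was 74.3% under promoters of 500 or 2000 bp, a limit of 2500 bp and joined peaks, and 42.9% at 4000 bp. Domains still at the limit in wt+TNFα were 86.9% at 4000 bp and 81.2% (572 of 704) when the same number of widest peaks was taken in each list. The median width ratio was 0.995 as covered bases over the domain width, which cannot exceed 1, and 1.07 for members chosen in wt+TNFα. Domains wider in wt+TNFα were 2.42% at 1.5-fold and 5.26% after division by the median ratio of all shared peaks, and narrower ones 2.99% and 10.7%. By that division the narrower domains (75) outnumbered the wider (37). Domains of at least 4000 bp had 0% under H3K27me3 in both conditions. In wt+TNFα, 0.426% had H3K27me3 over at least 50% of the width or at the summit, and at equal covered length 6 did.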
